A study of Homo sapiens with 6 samples.

Results

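The RAB small GTPases were examined in H661 cells, a human large cell lung carcinoma line, after knockdown of SALL4, a zinc finger transcription factor of early embryonic cells. A gene was taken as a RAB gene if a probe set of the array carried its symbol alone and the symbol was RAB followed by a number and at most 1 letter. This rule found 60 of the 18404 genes that the array measured with such a probe set, and the probe set with the highest mean stood for each gene. Of the 60, 59 are listed by RefSeq as protein-coding and RAB1C as a pseudogene.

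RAB proteins are molecular switches of membrane traffic. Bound to GTP and anchored in a membrane by prenyl groups, a RAB recruits effectors such as tethers, motors and lipid enzymes, and each RAB marks its own set of compartments along the secretory and endocytic routes. Exchange factors load a RAB with GTP, GTPase-activating proteins switch it off, and GDP dissociation inhibitor takes the inactive form off the membrane. In carcinoma cells these routes set how growth factor receptors are delivered, recycled and degraded.

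The SALL4-sh group was H661 cells that had received a lentiviral shRNA against SALL4, and the Scr-sh group was H661 cells that had received a scramble shRNA, with 3 arrays each. Both hairpins came in the same puromycin vector, only 1 SALL4 hairpin was used, and no source used here gives the time between transduction and RNA extraction. The labels number the arrays within each group, but no source says that they came from separate cultures, so that the p-values cover the spread among these arrays alone, and that spread may be technical. The labels and the study's methods differ on serum content and on the RNA extraction kit.

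SALL4 itself was read out first. The SALL4-sh arrays had normalized intensities of 33.6, 31.9 and 26.5, against 126, 104 and 130 on the Scr-sh arrays. Each SALL4-sh array was below each Scr-sh array, the log2 difference was -1.97 (SE 0.17, limma adjusted p = 0.000644), and the mean was 25.5% of the Scr-sh mean on the log scale. On all arrays the deposited values had a floor at exactly 8, which held 38.8% to 40.4% of the probe sets of an array. Of the cell type markers, EPCAM, an epithelial adhesion molecule, was at 843 to 1113 on SALL4-sh arrays and at 590 to 898 on Scr-sh arrays, whereas the keratin KRT8 was at or near the floor on all arrays (8 to 11.1 and 8 to 9.76). Of the 6 epithelial markers only CDH1, E-cadherin, was called, with 17.2, 16.1 and 17.3 in SALL4-sh cells and 10.5, 8 and 8.68 in Scr-sh cells (log2 difference 0.91, limma adjusted p = 0.00965). The mesenchymal marker VIM, a filament protein, was at 940.5 to 1142 in SALL4-sh cells and 1117 to 1615 in Scr-sh cells, with overlap. EPCAM also overlapped. EPCAM, KRT7 and KRT8 had log2 differences of 0.43, 0.08 and 0.07, but the keratins KRT18 and KRT19 had -0.44 and -0.11. Among the mesenchymal markers VIM had -0.35, ZEB1 0.29 and CDH2 0.01, and FN1 was at the floor. Neither list thus moved in 1 direction. The part of the CDH1 change in the RAB values was not tested. The leukocyte marker PTPRC and the melanocyte markers MLANA, PMEL and TYR stood at 8 on every array. MITF, a melanocyte transcription factor that other cells also express, had 96.6, 94.7 and 109 in SALL4-sh cells and 159, 120 and 171 in Scr-sh cells. Its groups were apart but it was not called (log2 difference -0.57, limma adjusted p = 0.0789).

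Of the 60 RAB genes, 52 were bright enough to be tested, 5 of these rose and 7 fell in SALL4-sh cells at a limma adjusted p under 0.05, and 40 were not called. The higher genes were RAB1A, RAB5B, RAB28, RAB23 and RAB2A, with folds of 1.71 to 2.42, and the lower genes were RAB30, RAB31, RAB2B, RAB15, RAB14, RAB8B and RAB11B, with folds of 1.74 to 2.10. Thus 9.62% of the tested RAB genes were called higher and 13.5% lower, against 5.95% and 5.54% of all 13803 genes tested. In either direction the shares were 23.1% of the RAB genes and 11.5% of all genes tested, and whether the RAB genes stand apart was not tested. The median log2 difference was -0.02 over the tested RAB genes and 0.02 over all genes tested, and the median size of the log2 difference was 0.23 in both sets. Before adjustment, limma gave a p under 0.05 to 7 RAB genes in the higher and 12 in the lower direction, against 13.6% and 11.1% of all genes tested. Whether the family leans to one side was not tested. In bulk samples such as these, fewer cells of a type and less RNA per cell cannot be told apart.

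In 20 of the 52 tested RAB genes the 3 SALL4-sh arrays did not overlap the 3 Scr-sh arrays, 7 of them higher and 13 lower in SALL4-sh cells. Over all genes tested, 15.7% were higher without overlap and 13.1% were lower without overlap. All 12 called RAB genes were among the 20. RAB17, counted among the 13, was at the floor on all SALL4-sh arrays and passed the intensity filter only through its Scr-sh values, so that 12 lower genes are left without it. The other 40 tested RAB genes were made up of 8 with separated groups, described below, and 32 with overlapping groups, whose log2 differences ran from -0.98 to 0.44, and 24 of the 40 lay within 0.2 of 0 on the log2 scale. The calls depended on how dim genes were treated. With dim genes removed up to the 50th percentile of mean intensity, 27.5% of 40 RAB genes were called, against 17.0% of all genes, and with no genes left out 2 RAB genes were higher (RAB1A and RAB2A) and 1 was lower (RAB15) of 60, against 2.51% of all genes called. RAB1A, RAB15 and RAB28 were called without any 1 of the 6 arrays, and each of the other 9 lost its call in at least 2 of the 6 fits that left out 1 array.

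**Figure D1:**
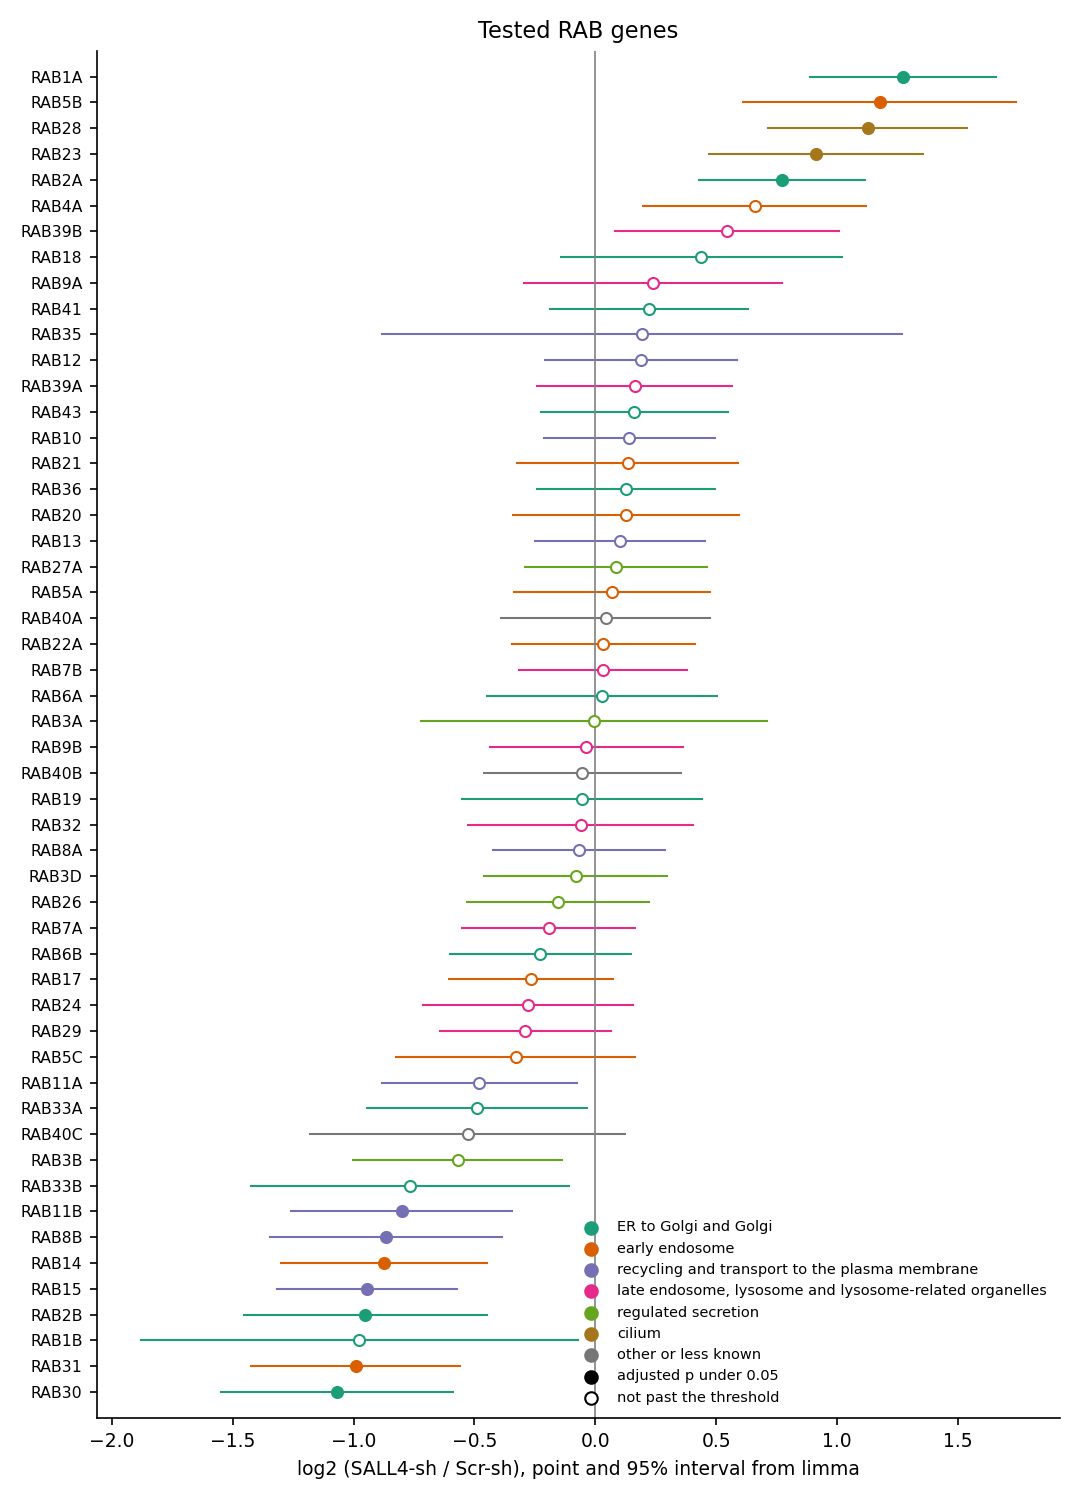
Log2 ratio of SALL4-sh to Scr-sh for the 52 tested RAB genes, sorted, with the 95% interval from limma; color gives the compartment group, and genes called at the 0.05 threshold are filled. The 12 filled points lie at both ends, from 0.77 to 1.27 on the right and from -1.07 to -0.80 on the left, and most points of the late endosome and secretion groups lie near 0.

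The RAB genes of the ER to Golgi route and the Golgi were 14 in number and all were tested. Of these, 2 were higher, 2 lower and 10 not called, against 5.95% higher and 5.54% lower of all genes tested. Whether this group stands apart was not tested. RAB1A, which tethers ER-derived vesicles at the Golgi, had intensities of 517, 543 and 609 in SALL4-sh cells, against 200, 229 and 264 in Scr-sh cells. The groups were far apart, with means of 556 ± 47.3 and 231 ± 32.4 (SD, n = 3 arrays each), a log2 difference of 1.27 (SE 0.17) and a limma adjusted p of 0.00270. This was the RAB gene with the largest increase and the smallest adjusted p, and its call held in all 17 alternative settings. Its paralog RAB1B, with the same function, had 112, 102 and 64.4 in SALL4-sh cells and 214, 89.2 and 295 in Scr-sh cells. Scr-sh replicate 2 lay among the SALL4-sh arrays while the other Scr-sh arrays were well above them, and RAB1B was not called (log2 difference -0.98, SE 0.40, limma adjusted p = 0.166). Without Scr-sh replicate 2, the log2 difference of RAB1B was -1.47 and its limma adjusted p was 0.0249. With any other array left out instead, RAB1B was not called (log2 differences of -0.61 to -1.13, limma adjusted p of 0.237 to 0.469).

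RAB2A and RAB2B, which act between the Golgi and the ER and in the delivery of material to lysosomes, moved in opposite directions. RAB2A had 329, 297 and 315 in SALL4-sh cells and 194, 171 and 186 in Scr-sh cells, a log2 difference of 0.77 (SE 0.15, limma adjusted p = 0.0132). RAB2B had 38.7, 39.7 and 26.4 in SALL4-sh cells and 55.2, 63.8 and 83.3 in Scr-sh cells, a log2 difference of -0.95 (SE 0.22, limma adjusted p = 0.0255). Neither gene's groups overlapped. RAB2A lost its call without SALL4-sh replicate 1 or 3 (adjusted p of at most 0.0556 in any setting). RAB2B kept its call only without Scr-sh replicate 1 among the settings that left out an array, where its limma adjusted p reached 0.107. Over all alternative settings its adjusted p reached 0.166.

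RAB30, a Golgi RAB, showed the largest decrease of the family. Its intensities were 39.6, 39.3 and 51.0 in SALL4-sh cells and 101, 67.9 and 107 in Scr-sh cells, with a log2 difference of -1.07 (SE 0.21, limma adjusted p = 0.0139). The 3 SALL4-sh arrays lay close together and below each Scr-sh array. The call was lost without SALL4-sh replicate 1 or 2 and without Scr-sh replicate 1 or 3. In these fits the limma adjusted p reached 0.0949. The call was also lost with no filter on dim genes (limma adjusted p = 0.113). Over all alternative settings the adjusted p of RAB30 reached 0.129. The 250 bases upstream of the RAB30 start, from the RefSeq promoter table of GRCh38.p14, are shown because they differ in base composition from those of RAB31 below, a gene with a like decrease. The capitals mark a CCAAT box read on the opposite strand.
RAB30 (chr11:83071898-83072147, minus strand): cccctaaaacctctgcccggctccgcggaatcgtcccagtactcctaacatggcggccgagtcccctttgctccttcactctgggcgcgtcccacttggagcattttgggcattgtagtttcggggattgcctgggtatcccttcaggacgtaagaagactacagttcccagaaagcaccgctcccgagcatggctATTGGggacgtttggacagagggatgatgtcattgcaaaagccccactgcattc

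The remaining Golgi RAB genes showed no call. RAB33A had 18.04, 16.98 and 22.14 in SALL4-sh cells and 24.71, 22.42 and 33.95 in Scr-sh cells, apart only narrowly (log2 difference -0.49, limma adjusted p = 0.166). RAB33B, which like RAB33A binds the autophagy factor ATG16L1, had 34.3, 26.7 and 20.9 in SALL4-sh cells and 68.7, 43.8 and 31.4 in Scr-sh cells. Its groups overlapped through Scr-sh replicate 3 (log2 difference -0.77, limma adjusted p = 0.134). RAB6A, which moves vesicles from the Golgi toward the ER and the cell surface, was at 138 to 231 in SALL4-sh cells and 167 to 193 in Scr-sh cells. Its log2 difference was 0.03, with a 95% interval of -0.45 to 0.51. RAB18, a RAB of the ER and of lipid droplets, was at 130 to 162 and 81.5 to 166 in SALL4-sh and Scr-sh cells, with overlapping groups.

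**Figure D2:**
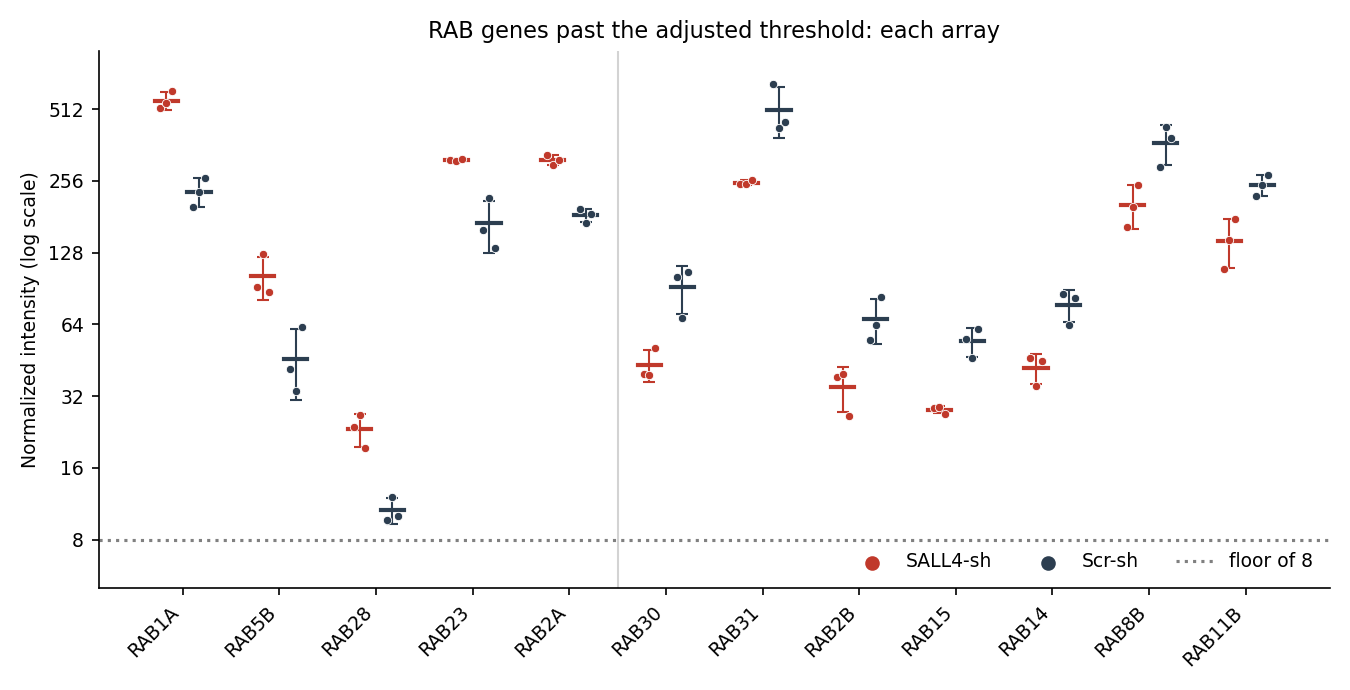
Normalized intensity (log axis) of the 12 called RAB genes on each array, SALL4-sh to the left of Scr-sh for each gene; points are arrays, wide bars are means and thin bars are SDs (n = 3 arrays). In none of the 12 genes do the groups overlap, and the Scr-sh arrays of RAB28 lie just above the floor of 8.

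The early endosome group held 10 genes, all tested, with 1 higher and 2 lower, against 5.95% and 5.54% of all genes tested. Whether the group stands apart was not tested. The 3 RAB5 proteins drive the fusion of early endosomes and are largely interchangeable in this. RAB5B had 92.1, 126 and 87.4 in SALL4-sh cells, against 41.8, 33.5 and 62.7 in Scr-sh cells. Its groups were apart, with a log2 difference of 1.18 (SE 0.25, limma adjusted p = 0.0177). When arrays were left out, its call held only without Scr-sh replicate 3, and its limma adjusted p reached 0.115. Over all alternative settings its adjusted p reached 0.161. RAB5A had 255, 303 and 365 in SALL4-sh cells and 267, 298 and 307 in Scr-sh cells. RAB5C had 274, 168 and 216 in SALL4-sh cells and 300, 221 and 297 in Scr-sh cells. Neither was called, with log2 differences of 0.07 (95% interval -0.34 to 0.47) and -0.33 (95% interval -0.82 to 0.16). The 250 bases upstream of RAB5B and RAB5C are set side by side, as members of 1 subfamily of which 1 was called and 1 was not. Capitals mark GC boxes and CCAAT boxes on either strand.
RAB5B (chr12:55973699-55973948, plus strand): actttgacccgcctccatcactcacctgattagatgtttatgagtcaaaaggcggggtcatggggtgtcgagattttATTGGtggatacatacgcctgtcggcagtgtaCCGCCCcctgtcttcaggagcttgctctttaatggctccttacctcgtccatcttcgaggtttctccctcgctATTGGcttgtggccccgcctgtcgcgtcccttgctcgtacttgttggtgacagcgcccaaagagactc
RAB5C (chr17:42154990-42155239, minus strand): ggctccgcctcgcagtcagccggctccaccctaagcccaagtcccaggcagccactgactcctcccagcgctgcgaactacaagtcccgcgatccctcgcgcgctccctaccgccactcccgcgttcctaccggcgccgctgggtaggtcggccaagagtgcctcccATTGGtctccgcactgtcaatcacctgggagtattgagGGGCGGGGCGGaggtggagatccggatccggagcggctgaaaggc

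RAB31 and RAB14, which work between the trans-Golgi network and endosomes, were lower in SALL4-sh cells. RAB31 had 247, 249 and 259 in SALL4-sh cells and 652, 428 and 451 in Scr-sh cells, with a log2 difference of -0.99 (SE 0.19, limma adjusted p = 0.0124). The SALL4-sh arrays were almost equal, and Scr-sh replicate 1 was the highest. RAB14 had 46.1, 35.3 and 45.1 in SALL4-sh cells and 85.9, 63.7 and 82.7 in Scr-sh cells, with a log2 difference of -0.87 (SE 0.19, limma adjusted p = 0.0185). Again the groups did not overlap. RAB31 lost its call without any 1 of the SALL4-sh arrays (limma adjusted p of up to 0.077). Among the settings without 1 array, RAB14 kept its call only without Scr-sh replicate 2, and its limma adjusted p reached 0.0921. Over all alternative settings the adjusted p of RAB31 and RAB14 reached 0.104 and 0.119. The upstream sequence of RAB31 is 82.0% G and C, against 56.4% for RAB30, and holds GC boxes and an E-box in capitals.
RAB31 (chr18:9708051-9708300, plus strand): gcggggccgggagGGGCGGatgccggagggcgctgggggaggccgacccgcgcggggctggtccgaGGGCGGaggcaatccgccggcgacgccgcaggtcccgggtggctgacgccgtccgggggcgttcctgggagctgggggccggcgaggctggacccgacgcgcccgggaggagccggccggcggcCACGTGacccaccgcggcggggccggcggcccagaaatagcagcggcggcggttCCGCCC

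RAB4A, which returns cargo from early endosomes to the surface, had 29.6, 41.8 and 36.2 in SALL4-sh cells and 22.3, 18.5 and 27.6 in Scr-sh cells. The groups did not overlap, and the log2 difference of 0.66 (95% interval 0.20 to 1.12) missed the threshold (limma adjusted p = 0.0724). RAB17, a RAB of polarized epithelial cells, stood at the floor of 8 on all SALL4-sh arrays and at 9.476, 9.001 and 10.40 on Scr-sh arrays, so that its log2 difference of -0.26 (limma adjusted p = 0.333) is a bound. RAB21 and RAB22A were bright and overlapped between the groups, with log2 differences of 0.14 and 0.03.

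Among the RAB genes of recycling and transport to the plasma membrane, 9 of 10 were tested, 0 were higher and 3 were lower, and before adjustment limma gave a p under 0.05 to 0 in the higher and 4 in the lower direction. Of all genes tested, 5.95% and 5.54% were called in these directions, and 13.6% and 11.1% had such a p before adjustment. RAB15, which acts in the recycling of the transferrin receptor, had 28.5, 28.7 and 27.0 in SALL4-sh cells and 55.4, 46.3 and 61.2 in Scr-sh cells. The SALL4-sh arrays were nearly identical and well below the others, with a log2 difference of -0.94 (SE 0.17, limma adjusted p = 0.00811). This call held without any 1 array. RAB8B, which carries vesicles to the surface, had 164, 199 and 247 in SALL4-sh cells and 293, 431 and 387 in Scr-sh cells, a log2 difference of -0.87 (SE 0.21, limma adjusted p = 0.0307). RAB11B, a marker of recycling endosomes, had 110, 144 and 177 in SALL4-sh cells and 221, 246 and 272 in Scr-sh cells, a log2 difference of -0.80 (SE 0.20, limma adjusted p = 0.0346). Both sets of arrays were apart but spread widely. Among the settings without 1 array, RAB8B was called only without Scr-sh replicate 1 and RAB11B only without SALL4-sh replicate 3. In these settings their limma adjusted p reached 0.136 and 0.134. Over all alternative settings their adjusted p reached 0.168 and 0.166.

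The close relatives of these genes were not called. RAB11A had 211, 226 and 287 in SALL4-sh cells and 354, 297 and 354 in Scr-sh cells. Its groups were apart in the same direction as RAB11B, with a log2 difference of -0.48 (95% interval -0.88 to -0.08, limma adjusted p = 0.126). RAB8A had 112, 115 and 114 in SALL4-sh cells and 107, 118 and 134 in Scr-sh cells, which overlapped, and the 95% interval of its log2 difference was -0.42 to 0.29. RAB10 and RAB13, which act in transport to the surface and at tight junctions, had log2 differences of 0.14 and 0.10 with overlapping groups. RAB35 varied more between arrays than between groups, at 49.1, 10.9 and 21.6 in SALL4-sh cells and 30.06, 16.15 and 15.98 in Scr-sh cells. RAB25, an epithelial member of the RAB11 subfamily, was at 8 on every array.

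RAB23 and RAB28 were the only 2 RAB genes assigned to the cilium, and both were called higher, a call given to 5.95% of all genes tested. RAB8A, RAB8B, RAB10, RAB11A and RAB11B also act at cilia but stand in the recycling and plasma membrane group, where RAB8B and RAB11B were lower and the other 3 were not called. Since the groups were assigned with earlier results known, the shared direction of RAB23 and RAB28 supports nothing about cilia. RAB23, a brake on Hedgehog signaling, had 314, 310 and 316 in SALL4-sh cells, against 159, 216 and 134 in Scr-sh cells. The SALL4-sh arrays were almost equal and above each Scr-sh array, with a log2 difference of 0.91 (SE 0.20, limma adjusted p = 0.0182). RAB28, which is needed in the outer segments of cone photoreceptors, had 23.8, 26.7 and 19.4 in SALL4-sh cells and 9.68, 12.1 and 10.1 in Scr-sh cells. Its groups were apart, with a log2 difference of 1.13 (SE 0.18, limma adjusted p = 0.00566), and its Scr-sh values lay just above the floor. RAB28 was called without any 1 array, and among these settings RAB23 was called only without Scr-sh replicate 2. The limma adjusted p of RAB23 reached 0.0935 without 1 array, and its adjusted p reached 0.126 over all alternative settings. Their upstream sequences are given because the genes share a compartment and a direction. The capitals mark the GC boxes and, in RAB23, a CCAAT box on the opposite strand.
RAB23 (chr6:57222308-57222557, minus strand): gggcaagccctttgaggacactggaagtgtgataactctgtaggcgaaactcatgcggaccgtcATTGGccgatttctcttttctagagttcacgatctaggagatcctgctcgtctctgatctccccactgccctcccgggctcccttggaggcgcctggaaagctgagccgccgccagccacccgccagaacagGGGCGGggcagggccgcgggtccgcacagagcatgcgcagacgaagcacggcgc
RAB28 (chr4:13484341-13484590, minus strand): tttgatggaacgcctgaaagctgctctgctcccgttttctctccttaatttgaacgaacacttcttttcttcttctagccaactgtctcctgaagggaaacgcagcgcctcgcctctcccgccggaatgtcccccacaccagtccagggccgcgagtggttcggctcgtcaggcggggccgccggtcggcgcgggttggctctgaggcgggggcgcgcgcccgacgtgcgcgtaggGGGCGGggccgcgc

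No gene of the late endosome and lysosome group was called among the 9 of 10 that were tested, and before adjustment limma gave a p under 0.05 to 1 in the higher and 0 in the lower direction. With 11.5% of all genes called, a count of 0 among 9 is no result about the group. RAB7A, the RAB of late endosomes and of lysosome fusion, had 566, 564 and 516 in SALL4-sh cells and 604, 708 and 576 in Scr-sh cells. These groups were apart by little, with a log2 difference of -0.19 (95% interval -0.55 to 0.17, limma adjusted p = 0.531). A dimmer probe set of RAB7A, not used in the test, had 154, 170 and 147 in SALL4-sh cells and 197, 297 and 239 in Scr-sh cells, also apart and with a larger log2 difference of -0.62. RAB7B was at 9.52 to 10.8 in SALL4-sh cells and 9.42 to 10.6 in Scr-sh cells, close to the floor. RAB39B, mutated in inherited parkinsonism, had 49.6, 69.3 and 53.1 in SALL4-sh cells and 34.1, 35.1 and 48.9 in Scr-sh cells, apart only narrowly (log2 difference 0.55, limma adjusted p = 0.129), while RAB39A overlapped (log2 difference 0.16). RAB29, a partner of the kinase LRRK2, had 40.2, 41.4 and 43.2 in SALL4-sh cells and 45.9, 50.4 and 56.7 in Scr-sh cells, also apart but not called (log2 difference -0.29, limma adjusted p = 0.308).

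The RAB genes of regulated secretion were mostly dim in these cells, and 5 of 8 were tested with 0 called by limma (before adjustment, 0 had a p under 0.05 in the higher and 1 in the lower direction). With 11.5% of all genes called, this count is no result about the group. RAB3B, which primes secretory vesicles, had 34.6, 23.3 and 28.4 in SALL4-sh cells and 39.97, 38.68 and 48.14 in Scr-sh cells. The groups were apart, with a log2 difference of -0.57 (95% interval -1.0002 to -0.14, limma adjusted p = 0.0946). RAB3A had 72.9, 53.1 and 78.1 in SALL4-sh cells and 108, 41.9 and 67.5 in Scr-sh cells, and RAB3D was at 16.1 to 21.0 and at 18.1 to 19.9, both with overlap. RAB3C and RAB27B were at 8 on every array. The summed intensity of 4 neuronal markers was 65.7 to 95.1 on SALL4-sh arrays and 111 to 125 on Scr-sh arrays. Most of this sum was SYT1, a vesicle calcium sensor, with means of 43.6 and 79.2. It alone was called, and was lower (log2 difference -0.90, limma adjusted p = 0.0462). SYP and RBFOX3 (log2 differences -0.35 and -0.13) and SNAP25 (0.17) overlapped between the groups. The part of the SYT1 change in the RAB3B values was not tested.

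The 8 RAB genes that were not tested were RAB1C, RAB3C, RAB25, RAB27B, RAB42 and RAB44, each with 8 on every array, and RAB37 and RAB38, which nowhere exceeded 8.96. No fold can be given for them. The 3 tested members of less known function, RAB40A, RAB40B and RAB40C, overlapped between the groups. RAB13 and RAB44 also had a second probe set each, and that of RAB44 was at the floor. That of RAB13 overlapped between the groups like the one used, but its log2 difference had the opposite sign (-0.27, against 0.10). A further 5 probe sets carried a RAB symbol together with other symbols, among them 2 shared by RAB6A and its near-identical copies RAB6C and RAB6D, and they were not used. Cross-hybridization of these copies is possible for RAB6A too, and its values are uncertain for that reason.

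Since several subfamilies held called and uncalled paralogs, the log2 ratio of the 2 genes on each array was compared between the groups for the 18 pairs that share a number and were both tested, from 12 families. In 7 pairs the ratios did not overlap. A share over other gene pairs was not computed, so this count is no result about RAB pairs. Most of the 7 pairs hold a called gene, and their ratios in part repeat its separation. With 3 against 3 arrays an exact two-sided permutation test over the 20 labelings cannot go below p = 0.1, which these 7 pairs reached, and the smallest Benjamini-Hochberg adjusted p over the 18 pairs was 0.257. The shift was largest for RAB1A against RAB1B. This log2 ratio was 2.20, 2.41 and 3.24 on SALL4-sh arrays and -0.10, 1.36 and -0.16 on Scr-sh arrays, so that the ratio was 4.75 times as high in SALL4-sh cells. Scr-sh replicate 2, where RAB1B was low, was the closest to the SALL4-sh arrays. The RAB2A to RAB2B log2 ratio was 3.09, 2.90 and 3.57 on SALL4-sh arrays and 1.82, 1.42 and 1.16 on Scr-sh arrays, a shift of 3.30-fold.

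Of the RAB5 subfamily only RAB5B was called, and the ratios that hold it did not overlap between the groups. The RAB5B to RAB5C log2 ratio was -1.10 ± 0.61 in SALL4-sh cells and -2.60 ± 0.32 in Scr-sh cells (SD, n = 3 arrays each), and the RAB5A to RAB5B log2 ratio was 1.60 ± 0.42 and 2.71 ± 0.43. The RAB8A to RAB8B log2 ratio was -0.82 ± 0.28 in SALL4-sh cells and -1.62 ± 0.23 in Scr-sh cells, also without overlap. In contrast, the RAB11A to RAB11B ratio overlapped (0.76 ± 0.16 and 0.44 ± 0.21 on the log2 scale, exact two-sided permutation p = 0.2). The RAB3B to RAB3D log2 ratio was 0.68 ± 0.16 in SALL4-sh cells and 1.17 ± 0.23 in Scr-sh cells, without overlap. The last of the 7 pairs was RAB7A and RAB7B, and since RAB7B lay close to the floor on all arrays, no value is given for it. The ratios describe how far 2 genes moved apart within an array, and none passed the threshold after adjustment. Levels of different probe sets were not compared.

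**Figure D3:**
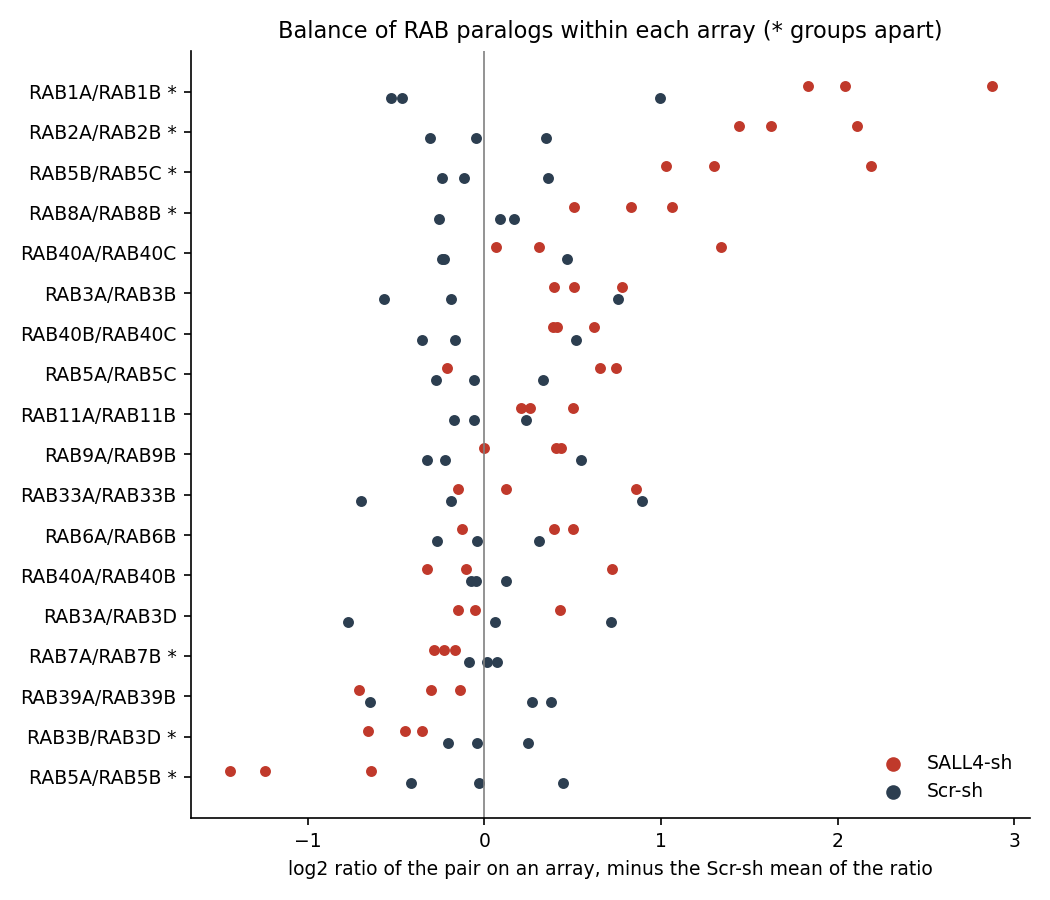
Log2 ratio of 2 RAB paralogs on each array, set to 0 at the Scr-sh mean of the pair; points are arrays and an asterisk marks pairs whose groups do not overlap. The 3 SALL4-sh arrays of RAB1A/RAB1B lie right of all Scr-sh arrays, and those of RAB5A/RAB5B lie left of all Scr-sh arrays.

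The upstream sequences were searched for 5 motifs on both strands. These were the GC box GGGCGG, bound by SP factors, the CCAAT box CCAAT, the E-box CACGTG, the TATA box TATAAA, and the AT-rich motif ATATT, chosen as a short AT-rich word of the kind the SALL4 zinc fingers bind. The RefSeq table held a promoter for 46 of the 60 RAB genes, and RAB1A, RAB2A and RAB15 are among those not in it. A GC box was found in 37 of the 46 (80.4%), against 42.3% of all 27305 promoters of the table and 65.6% of the 10896 promoters of tested genes. A TATA box was found in 2 (4.35%, against 11.1% of all promoters and 6.16% of those of tested genes), and an E-box in 5 (10.9%, against 6.49% and 8.91%). The AT-rich motif was found in 3 RAB promoters (6.52%), against 22.0% of all promoters and 10.6% of those of tested genes, and in 0 of the 9 promoters of called RAB genes. The median GC content of the RAB promoters was 65.0%, against 58.0% for all promoters and 64.8% for those of tested genes.

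The CCAAT box was spread unevenly over the RAB promoters. It was found in 2 of 3 promoters of higher RAB genes and 4 of 6 promoters of lower ones, but in 6 of 33 (18.2%) of tested RAB genes that were not called, against 33.0% of all promoters and 34.3% of those of tested genes. The motif was therefore present in both directions of change, as in the sequences of RAB5B and RAB23 on the one hand and RAB30 on the other. It was also present upstream of RAB5C, which was not called. These matches are a description of the letters, were looked at with the calls known, and were not tested.

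The proteins that load, prenylate, switch off and read RABs were counted in 4 lists. Of 117 tested genes 15 rose and 6 fell in SALL4-sh cells (17.9%, against 11.5% of all genes tested), or 12.8% and 5.13% against 5.95% and 5.54%. Their median log2 difference was 0.09, and whether these genes stand apart was not tested. In the list of prenylation, escort and GDI genes, 2 of 8 were higher and 1 was lower. RABGGTB, the catalytic subunit of the enzyme that prenylates RABs, had 653, 752 and 625 in SALL4-sh cells and 352, 386 and 387 in Scr-sh cells, a log2 difference of 0.85 (SE 0.16, limma adjusted p = 0.0105). GDI2, which extracts inactive RABs from membranes, had 216, 224 and 182 in SALL4-sh cells and 475, 452 and 366 in Scr-sh cells, a log2 difference of -1.05 (SE 0.17, limma adjusted p = 0.00635). The groups of both genes were apart, in opposite directions. ARL6IP5, a member of the PRA1 family of prenylated RAB acceptors, had 384, 336 and 376 in SALL4-sh cells and 190, 134 and 173 in Scr-sh cells, a log2 difference of 1.16 (SE 0.18, limma adjusted p = 0.00485).

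Among 33 tested exchange factors 2 were higher and 3 were lower (6.06% and 9.09%, against 5.95% and 5.54% of all genes tested), with a median log2 difference of 0.14. ANKRD27, or VARP, an exchange factor of RAB21, showed the largest change of the 4 lists. It had 51.8, 47.2 and 38.9 in SALL4-sh cells and 140, 150 and 141 in Scr-sh cells, a log2 difference of -1.66 (SE 0.17, limma adjusted p = 0.000993). All SALL4-sh arrays lay far below the Scr-sh arrays, while RAB21 itself was not called. RGP1, part of the RAB6 exchange factor, was higher, with means of 50.4 ± 6.62 in SALL4-sh cells and 22.1 ± 2.68 in Scr-sh cells (SD, n = 3 arrays each; log2 difference 1.19, limma adjusted p = 0.00393). RABGEF1, or Rabex-5, the exchange factor of RAB5, had 77.3, 79.7 and 99.0 in SALL4-sh cells and 47.4, 49.5 and 29.8 in Scr-sh cells, and was higher without overlap (log2 difference 1.04, limma adjusted p = 0.0182). DENND6A, an exchange factor of RAB14, was lower like RAB14 (log2 difference -0.92, limma adjusted p = 0.0449). The third called lower, DENND2A, had 8.71, 8 and 8 in SALL4-sh cells and 12.9, 13.3 and 10.9 in Scr-sh cells. It passed the intensity filter only through its Scr-sh values, its difference is a bound, and its call supports nothing here.

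Of 33 tested GTPase-activating proteins 3 were higher and 1 was lower, 12.1% against 11.5% of all genes tested, a share near the background. TBC1D14, which links RAB11 endosomes to autophagy, RAB3GAP1, a subunit of the complex that acts on RAB3 and RAB18, and TBC1D12, a RAB11 binding protein, were higher with log2 differences of 1.01, 0.91 and 0.82 (limma adjusted p = 0.0300, 0.0310 and 0.0350). TBC1D22B was lower with a log2 difference of -0.72 (limma adjusted p = 0.0210). In none of these 4 genes did the groups overlap.

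Of 43 tested effectors 8 were higher and 1 was lower (18.6% and 2.33%, against 5.95% and 5.54% of all genes tested). The list, chosen with earlier results known, had a median log2 difference of 0.04, and whether it stands apart was not tested. RABEP1, or Rabaptin-5, which binds RAB5 and RAB4 and forms a complex with RABGEF1, had 156, 171 and 145 in SALL4-sh cells and 58.7, 84.2 and 64.6 in Scr-sh cells, a log2 difference of 1.20 (SE 0.18, limma adjusted p = 0.00446). OCRL, an inositol phosphatase recruited by several RABs, had 86.4, 98.7 and 73.9 in SALL4-sh cells and 221, 224 and 175 in Scr-sh cells, a log2 difference of -1.26 (SE 0.18, limma adjusted p = 0.00368). GORASP2, a Golgi stacking protein of the RAB2 pathway, had 519, 517 and 516 in SALL4-sh cells and 285, 309 and 276 in Scr-sh cells, a log2 difference of 0.84 (SE 0.15, limma adjusted p = 0.00858). The groups of all 3 genes were apart. The motor MYO5A and the RAB11 binding protein RAB11FIP4 were higher with log2 differences of 1.04 and 1.14 (limma adjusted p = 0.00781 and 0.0117). The other higher effectors, named after their values were seen, were the golgins GCC2 and TMF1, the RAB4 and RAB14 effector RUFY1 and the RAB3 effector RIMS2. Their log2 differences were 1.28, 1.04, 0.98 and 0.61. EEA1, the tether of RAB5 endosomes, was named for its role and was not called (38.7 to 52.0 in SALL4-sh cells and 48.0 to 86.4 in Scr-sh cells).

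**Figure D4:**
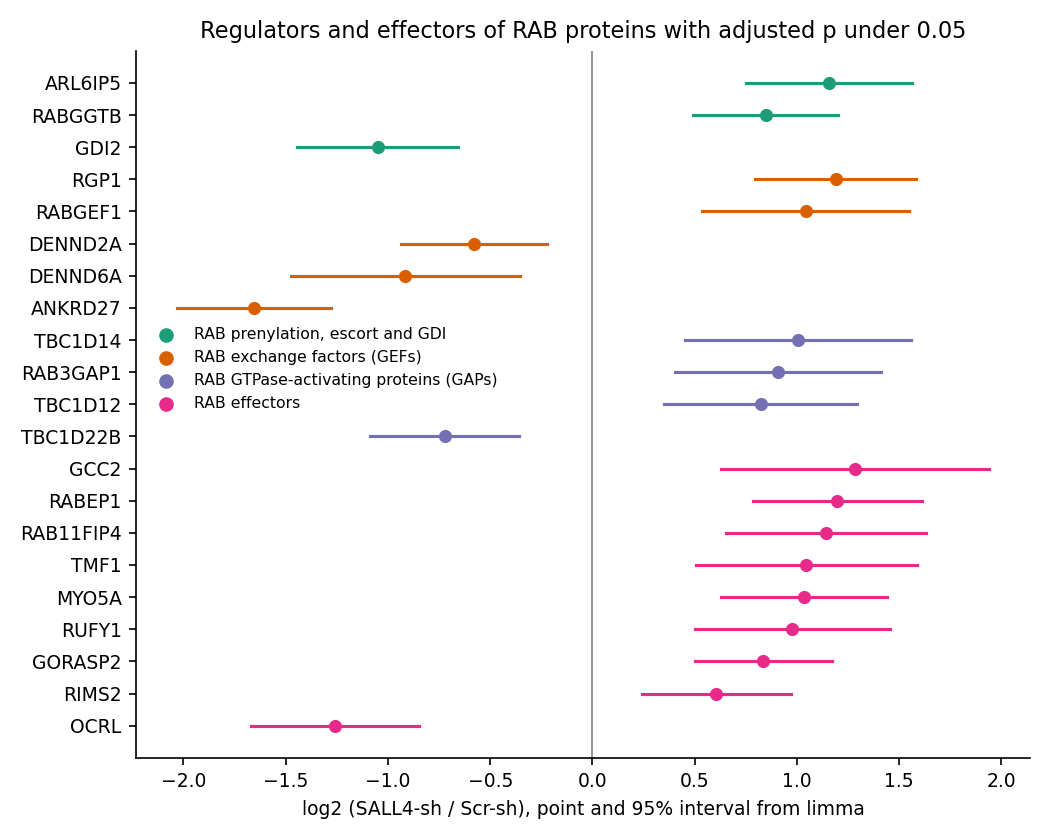
Log2 ratio of SALL4-sh to Scr-sh, with the 95% interval from limma, for the 21 called genes that act on or downstream of RABs, colored by list. Of these, 15 lie right of 0, 8 of them effectors, and ANKRD27 lies farthest from 0 at -1.66. The point of DENND2A is a bound, since 2 of its SALL4-sh arrays were at the floor.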

How the data were processed

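Gene expression was measured on 6 Affymetrix arrays of H661 cells, 3 SALL4-sh and 3 Scr-sh. The values deposited by the authors were normalized intensities of 32321 probe sets, linear in scale and with a floor at 8. RMA is named in the submitters' processing notes, without a version. RMA sets the arrays to a common distribution, so that a shift of all genes together could not be seen, and the floor hides differences between weak signals. Precision is limited by the number of arrays. No 2 arrays held identical values.

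Deposited intensities were converted to log2. Symbols came from the platform annotation: 19158 had 1 symbol, 1388 had several and were not used, and 11775 had none listed. Gene identifiers were checked against the RefSeq gene table (GRCh38.p14); 0 symbols changed, and 30 identifiers had no entry. The brightest probe set stood for each of 18404 genes. The comparison used limma 3.58.1 (R 4.3.3; lmFit, then eBayes with no trend), after leaving out genes up to the 25th percentile of mean log2 intensity (3.05), with Benjamini-Hochberg adjustment over the 13803 genes kept and a threshold of 0.05. The filter was chosen because floored genes show no variance, which left 0.422 prior degrees of freedom with all genes, against 5.33 with the filter. It was chosen with results of the unfiltered fit known, and it calls more genes. Paralog ratios were compared with exact two-sided permutation tests.

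The RAB genes, their compartments, the lists and the filter were chosen with earlier results of these data known. The genes named are SALL4, the called RAB genes, RAB genes with separated groups, their same-number relatives and, per list, up to 5 called genes ranked by adjusted p. Other genes were named for their role or after their values were seen. The compartment of each RAB gene was assigned from general knowledge. Upstream sequences were the 250 bases before the first start listed for a gene in the RefSeq promoter table of GRCh38.p14, and the 6 printed were chosen with the calls known.

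Simulated data (10 sets, made with the real arrays' means, variances and floor) were used to check the test. At 13803 genes the share recovered was 4.03% at 1.5-fold, 43.9% at 2-fold and 89.2% at 4-fold, and 4.61% of calls were false. With no filter, at 18404 genes, the values were 4.48%, 14.0%, 48.9% and 10.4%. Only genes well above the filter's intensity limit were changed in these sets, and far fewer than were called in the real data. The filter could therefore lose no changed gene by design. These shares do not cover dim genes and cannot show what the filter loses. The alternatives tried were no filter, a stricter filter, 3 other normalizations, eBayes with trend, weighting of arrays, blocking on the replicate number, the one-way ANOVA that the study names, the mean of probe sets, a 1.5-fold minimum and leaving out each array.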

Additional observations from a re-analysis of the deposited data

Results flagged for a closer look

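A probe set that the comparison did not use, because it carries the symbols RAB6A, RAB6C and RAB6D together, was higher in SALL4-sh cells, with intensities of 25.9, 22.0 and 33.6 against 21.0, 22.0 and 21.3 in Scr-sh cells and a log2 difference of 0.32. Its groups were apart by less than the rounding of these values, and it had no test. The brighter probe set with the same 3 symbols overlapped between the groups, at 224, 166 and 205 in SALL4-sh cells and 300, 171 and 223 in Scr-sh cells, with a log2 difference of -0.20. RAB6A's own probe set had a log2 difference of 0.03.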

How the results depend on the processing

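Against 5 RAB genes higher and 7 lower, 2 and 1 were called with no filter on dim genes, and 2 and 0 by the one-way ANOVA (6 and 11 at its unadjusted p under 0.05). Leaving out 1 array gave 2 to 5 RAB genes higher and 1 to 5 lower. The lowest counts came without SALL4-sh replicate 1 (2 and 1) and the highest without Scr-sh replicate 2 (5 and 5). These highest counts include genes not called with all arrays, among them RAB1B (limma adjusted p = 0.0249). RAB5B, RAB2B, RAB8B and RAB11B lost their calls in that fit (limma adjusted p of 0.0558, 0.0627, 0.0866 and 0.0799). Of the regulators and effectors, 21 were called, against 8 with no filter, 3 by ANOVA and 8 to 19 without 1 array. Over all genes, 821 were higher and 764 lower, against 218 and 244 with no filter, 113 and 144 by ANOVA, and 185 to 911 and 306 to 676 without 1 array. Whether the numbers of the arrays pair them was not clear: the same-number correlations of deviations were 0.144, 0.113 and -0.0009. SALL4-sh replicates 1 and 2 correlated best with the Scr-sh array of the same number, but SALL4-sh replicate 3 with Scr-sh replicate 2 (0.0313). With the replicate block, 5 RAB genes were higher and 8 lower, RAB33B being the added one (limma adjusted p = 0.0268), and SALL4 had an adjusted p of 0.00189. Without 1 array, genes with log2 differences near 0 changed sign: RAB3A from -0.35 to 0.34, RAB5A from -0.064 to 0.20 (-0.034 with cyclic loess), RAB7B from -0.018 to 0.084 and RAB8A from -0.14 to 0.018. Of the values of the named, tested RAB genes under the alternatives, 421 kept direction and side of the threshold, 58 lost the call, 3 gained a call and 7 changed sign. The cause of these differences was not tested, except that leaving out an array leaves fewer samples. The count of paralog pairs apart (7) was 6 to 10 throughout.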
